A study of Homo sapiens with 4 samples.

Results

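Oxidative phosphorylation genes were measured by RNA sequencing in UMUC3 and SW780, both human lines derived from bladder cancer, after knockdown of SCD1, the desaturase that makes monounsaturated fatty acids and whose gene symbol is SCD. Members were the 13 protein-coding genes of the mitochondrial genome. Each is called an mRNA below, although MT-ATP8 overlaps MT-ATP6 and MT-ND4L overlaps MT-ND4. Further members were every row whose symbol began with NDUFA, NDUFB, NDUFC, NDUFS, NDUFV, UQCR, COX4 to COX8 or ATP5. SDHA, SDHB, SDHC, SDHD and CYC1 were members too. Pseudogenes were left out, and at least 1 read per 1000000 reads (CPM) was required in either library of the line. In UMUC3 114 rows carried such a symbol and 106 reached 1 CPM, of 30148 rows in all. In SW780 109 did and 105 reached 1 CPM, of 17752 rows. Each line had 1 library of cells in which lentivirus had been used to knock down SCD1, labelled shSCD1, and 1 library labelled shNT, with the genotype WT and with shNT not spelled out. All cells grew in 10% fetal bovine serum, UMUC3 in MEM and SW780 in DMEM, and the labels state neither the number of cultures nor that of hairpins behind a library. Since each group is a single library, differences within a line have no replicate check and no p-value, and the words higher and lower refer to the libraries compared.

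Oxidative phosphorylation makes ATP at the inner mitochondrial membrane. Complexes I and II pass electrons to ubiquinone, complex III passes them to cytochrome c and complex IV to oxygen, while complexes I, III and IV pump protons that drive ATP synthase, also called complex V. The subunits come from both genomes: the mitochondrial genome is transcribed as long precursors from both strands and cut mostly at its tRNAs, and the other subunits are nuclear genes whose promoters often carry sites for NRF1, GABPA and YY1. Complex II is built from nuclear genes alone.

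The highest ratio among the mitochondrial mRNAs of UMUC3 was that of MT-ATP8, a small subunit of ATP synthase, whose gene ends inside MT-ATP6. Its sequence is shown because those shared bases make part of its reads uncertain. The 207 bases at chrM:8366-8572 (GRCh38, plus strand, GENCODE 29) are printed 5′ to 3′, and capitals mark the 46 bases that also belong to MT-ATP6.
MT-ATP8: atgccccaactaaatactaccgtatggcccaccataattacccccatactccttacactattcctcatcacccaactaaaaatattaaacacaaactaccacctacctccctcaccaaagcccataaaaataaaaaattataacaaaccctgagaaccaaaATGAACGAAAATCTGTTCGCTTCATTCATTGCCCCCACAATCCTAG

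Of 94 nuclear members listed in either table, 75 had a RefSeq promoter window (GRCh38.p14, 250 bases before to 50 after the start site). Windows are shown for UQCRFS1 and NDUFAF8, the nuclear members lower by 1.5-fold in UMUC3, for COX7B2, the nuclear member higher by 1.5-fold in SW780, and for SDHB, which holds matches to the NRF1, GABPA and YY1 motifs together. Capitals mark exact matches, on either strand, to GCATGCGC (NRF1), CCGGAAG (GABPA), AAGATGGCG (YY1) or TCAAGGTCA (ESRRA), none of which overlap in these windows. The windows lie at chr19:29213102-29213401 (minus strand) for UQCRFS1, chr17:81239061-81239360 (plus strand) for NDUFAF8, chr4:46909196-46909495 (minus strand) for COX7B2 and chr1:17053983-17054282 (minus strand) for SDHB. NDUFAF8 has 3 windows in the table, 2 of which hold the GABPA and YY1 matches, and the first of these is shown.
UQCRFS1: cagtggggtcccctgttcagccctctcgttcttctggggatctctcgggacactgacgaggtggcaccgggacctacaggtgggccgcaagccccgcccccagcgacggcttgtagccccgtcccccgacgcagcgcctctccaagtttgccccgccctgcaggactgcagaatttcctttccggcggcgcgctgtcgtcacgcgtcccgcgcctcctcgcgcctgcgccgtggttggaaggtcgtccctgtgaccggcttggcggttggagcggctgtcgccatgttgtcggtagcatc
NDUFAF8: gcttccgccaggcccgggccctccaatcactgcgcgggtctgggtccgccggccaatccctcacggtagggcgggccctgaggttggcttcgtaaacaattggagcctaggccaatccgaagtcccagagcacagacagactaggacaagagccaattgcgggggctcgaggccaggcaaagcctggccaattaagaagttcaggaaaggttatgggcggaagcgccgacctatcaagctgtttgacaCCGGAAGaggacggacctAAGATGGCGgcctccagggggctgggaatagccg
COX7B2: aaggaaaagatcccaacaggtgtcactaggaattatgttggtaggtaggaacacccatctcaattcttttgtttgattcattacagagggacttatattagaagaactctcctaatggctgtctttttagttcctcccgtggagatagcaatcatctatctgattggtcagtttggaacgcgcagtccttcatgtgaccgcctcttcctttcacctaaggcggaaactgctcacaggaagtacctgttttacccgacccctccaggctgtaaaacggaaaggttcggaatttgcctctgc
SDHB: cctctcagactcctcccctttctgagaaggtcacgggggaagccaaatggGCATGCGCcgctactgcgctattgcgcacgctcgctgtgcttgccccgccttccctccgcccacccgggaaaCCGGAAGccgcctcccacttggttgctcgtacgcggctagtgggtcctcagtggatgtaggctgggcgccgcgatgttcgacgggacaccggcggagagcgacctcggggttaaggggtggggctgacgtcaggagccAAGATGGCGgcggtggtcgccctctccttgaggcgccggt

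The NRF1 motif was in a window of 16 of the 75 nuclear members (21.3%), against 3.68% of all 27305 genes with a window. The GABPA motif was in 23 members (30.7%), against 12.2% of all genes. The YY1 motif was in 10 members (13.3%), against 2.14% of all genes. The ESRRA motif was in 1 member, SDHD, against 0.432% of all genes. The short GGGCGG of SP1 was in 48 members (64.0%), against 48.3% of all genes. SDHB and ATP5PF, a stalk subunit of ATP synthase, were the 2 members with the NRF1, GABPA and YY1 motifs together. A match is a string of letters in the window and was not tested as a site. The medians below are of the log2 ratio of shSCD1 over shNT that is defined with the values. In UMUC3 members with the motif and members without it had medians of −0.08 and −0.20 for NRF1, −0.21 and −0.12 for GABPA, −0.06 and −0.15 for YY1 and −0.14 and −0.19 for SP1. In SW780 these medians were −0.07 and −0.06 for NRF1, −0.09 and −0.04 for GABPA, −0.05 and −0.06 for YY1 and −0.06 and −0.05 for SP1. Members with and without a motif thus lay near each other in SW780 and on no common side in UMUC3.

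The deposited columns are headed RPKM but hold read counts scaled to the same total in each library, so whole reads were recovered and are given as CPM. Totals over the listed genes were 32540576 reads (shSCD1) and 22818368 (shNT) in UMUC3, and 25549737 (shSCD1) and 34087871 (shNT) in SW780. The headers call the columns first and second. The second was read as shSCD1 because the tables are named for shSCD1 and give second over first, and every direction below would turn round if the columns stood otherwise. SCD had 59.6 CPM in the shSCD1 library of UMUC3, against 264 CPM in shNT, and 92.1 CPM in the shSCD1 library of SW780, against 592 CPM in shNT. It was 4.44-fold lower in shSCD1 in UMUC3 and 6.43-fold lower in SW780. Markers of luminal urothelium were at 1 CPM or more for 4 of 9 genes in UMUC3, where KRT19 had 0 reads in both libraries, and for 7 of 9 in SW780. Their summed level was 184 CPM in shSCD1 and 383 CPM in shNT in UMUC3, and 3403 CPM in shSCD1 and 4624 CPM in shNT in SW780. Mesenchymal markers summed to 2557 CPM in shSCD1 and 3112 CPM in shNT in UMUC3, and to 804 CPM in shSCD1 and 301 CPM in shNT in SW780. Blood and endothelial markers summed to at most 5.64 CPM in any library. Fibroblast markers summed to 0.430 CPM in shSCD1 and 1.01 CPM in shNT of UMUC3, and to 40.0 CPM in shSCD1 and 35.9 CPM in shNT of SW780. The part of these marker levels in the results below was not tested.

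Ratios are log2((shSCD1 CPM + 1)/(shNT CPM + 1)), and a size rule of at least 1.5-fold on that scale was used. The folds given with an interval are of plain CPM, and the interval is an exact Clopper-Pearson 95% interval that covers counting error only. Over all 14063 genes of UMUC3 with at least 1 CPM the median log2 ratio was 0.04, and over all 12880 of SW780 it was −0.01. Members and background are read on the same scale throughout.

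In UMUC3 all 13 mitochondrial mRNAs were higher in shSCD1 than in shNT, with a median log2 ratio of 0.67. Above 0 stood 54.3% of all genes of the line. By at least 1.5-fold 7 of the 13 were higher, against 10.1% of all genes. The 7 include both MT-ATP8 and MT-ATP6, whose genes share 46 bases, so they are not all separate. In SW780 the same 13 mRNAs had a median log2 ratio of −0.02, with 5 above 0 and 8 below, against 48.5% and 51.5% of all genes. None of them passed 1.5-fold in SW780.

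Together the 13 mRNAs took 5.51% of the listed reads in the shSCD1 library of UMUC3 (95% interval 5.50 to 5.52), against 3.65% in shNT (3.64 to 3.65). In SW780 they took 4.51% in shSCD1 (4.51 to 4.52), against 4.33% in shNT (4.32 to 4.34). The mitochondrial mRNAs of UMUC3 gave 6.06 reads per read of a nuclear member in shSCD1, against 3.60 in shNT. In SW780 there were 5.81 in shSCD1, against 5.22 in shNT. A share of the reads cannot tell more mitochondrial RNA per cell from less of the other RNA.

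**Figure D1:**
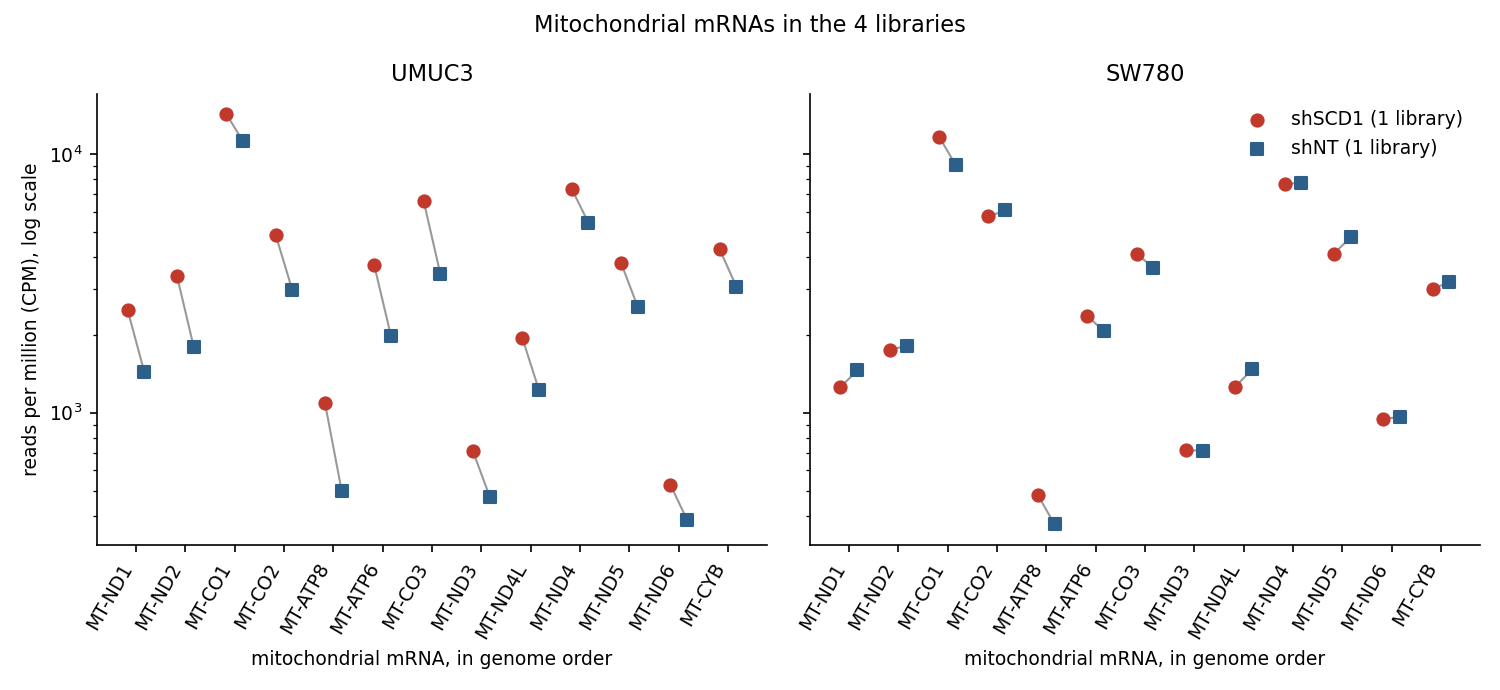
Level of each mitochondrial mRNA in CPM (log axis) in the shSCD1 library (circles) and the shNT library (squares) of each line, 1 library per point, with a line joining the pair. All 13 pairs slope down from shSCD1 to shNT in UMUC3, and 5 of 13 do in SW780.

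MT-ATP8 had 1090 CPM in the shSCD1 library of UMUC3, against 497 CPM in shNT, a fold of 2.19 (2.15 to 2.24). In SW780 it had 481 CPM in shSCD1, against 370 CPM in shNT, a fold of 1.30 (1.27 to 1.33). It was the highest of the 13 ratios in both lines, with 22.2% of its bases shared with MT-ATP6. MT-ATP6, the proton channel subunit of ATP synthase, had 3711 CPM in the shSCD1 library of UMUC3, against 1973 CPM in shNT. In SW780 it had 2367 CPM in shSCD1, against 2068 CPM in shNT. The folds of MT-ATP6 were 1.88 in UMUC3 and 1.14 in SW780.

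The 3 mitochondrial subunits of complex IV, which form its catalytic core, differed among themselves. MT-CO1 was the most abundant member in every library by read count, with 14304 CPM in shSCD1 and 11206 CPM in shNT of UMUC3. In SW780 it had 11672 CPM in shSCD1 and 9052 CPM in shNT. Its fold was alike in both lines, 1.28 (1.27 to 1.28) in UMUC3 and 1.29 (1.28 to 1.30) in SW780, and it had the lowest ratio of the 13 in UMUC3. MT-CO2, which takes electrons from cytochrome c, had 4879 CPM in the shSCD1 library of UMUC3, against 2973 CPM in shNT. In SW780 it had 5747 CPM in shSCD1, against 6059 CPM in shNT. MT-CO3 had 6590 CPM in the shSCD1 library of UMUC3, against 3435 CPM in shNT, and its log2 ratio of 0.94 was the second highest of the 13. The SW780 level was 4128 CPM in shSCD1, against 3634 CPM in shNT.

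The 7 mitochondrial subunits of complex I, which lie in its membrane arm, had a median log2 ratio of 0.58 in UMUC3 and −0.05 in SW780. MT-ND2 had the highest in UMUC3, with 3383 CPM in shSCD1 and 1796 CPM in shNT. MT-ND1, at 2496 CPM in shSCD1 and 1432 CPM in shNT, and MT-ND4L, at 1947 CPM in shSCD1 and 1219 CPM in shNT, also passed 1.5-fold. MT-ND3 stood just under it, at 709 CPM in shSCD1 and 473 CPM in shNT and a log2 ratio of 0.58. MT-ND5 had 3804 CPM in shSCD1 and 2563 CPM in shNT. MT-ND4 had 7349 CPM in shSCD1 and 5431 CPM in shNT, the lowest log2 ratio of the 7 at 0.44. The end of MT-ND4L and the start of MT-ND4 share 7 bases. Their ratios are those of gene rows, and whether their reads came from separate transcripts was not tested. MT-ND6, the one mRNA copied from the other strand, had 527 CPM in shSCD1 and 385 CPM in shNT, a log2 ratio of 0.45. The use of strand in counting is not stated, so reads of MT-ND6 cannot be told apart from reads of its antisense transcript.

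In SW780 6 of these 7 were lower in shSCD1, against 51.5% of all genes. MT-ND4L had 1258 CPM in shSCD1, against 1470 CPM in shNT, the lowest ratio of the 13 mRNAs at −0.22. MT-ND1 had 1256 CPM in shSCD1, against 1457 CPM in shNT, and MT-ND5 had 4124 CPM in shSCD1, against 4769 CPM in shNT. MT-ND2 had 1753 CPM in shSCD1, against 1811 CPM in shNT. MT-ND4 (7687 CPM in shSCD1, 7735 CPM in shNT), MT-ND6 (949 CPM in shSCD1, 961 CPM in shNT) and MT-ND3 (717 CPM in shSCD1, 712 CPM in shNT) lay within 2% of equal. MT-CYB, the cytochrome b of complex III, had 4286 CPM in shSCD1 and 3071 CPM in shNT in UMUC3, and 3010 CPM in shSCD1 and 3203 CPM in shNT in SW780.

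Per length, given as reads per kilobase of transcript scaled to one common total over the genes in both tables, MT-CO1 stood highest in UMUC3, at 22461 in shSCD1 and 17845 in shNT. MT-ND6 stood lowest there, at 2430 in shSCD1 and 1801 in shNT. In SW780 MT-CO2 stood highest, at 20840 in shSCD1 and 21982 in shNT, and MT-ND1 lowest, at 3259 in shSCD1 and 3782 in shNT.

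The other RNAs of the mitochondrial genome were measured in UMUC3 and were not analysed in SW780. Of 22 tRNA rows 21 reached 1 CPM, with a median log2 ratio of 0.63. Above 0 were 20 of the 21, against 54.3% of all genes. The 8 tRNA genes of the strand that carries MT-ND6 had a median of 0.64, and the 13 of the other strand 0.56. Since the use of strand in counting is not stated, reads of these rows cannot be assigned to a strand. Many of the 21 rows had few reads, with a median level of 7.07 CPM in shSCD1 and 4.51 CPM in shNT. The 2 ribosomal RNAs, which lie before the mRNAs on the heavy-strand transcript, had lower ratios than every mRNA. MT-RNR2, the large ribosomal RNA, had 3974 CPM in shSCD1, against 4986 CPM in shNT, a log2 ratio of −0.33. MT-RNR1, the small one, had 344 CPM in shSCD1, against 314 CPM in shNT, a log2 ratio of 0.13. How far the selection of RNA in library preparation enters these rRNA and tRNA values was not tested.

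**Figure D2:**
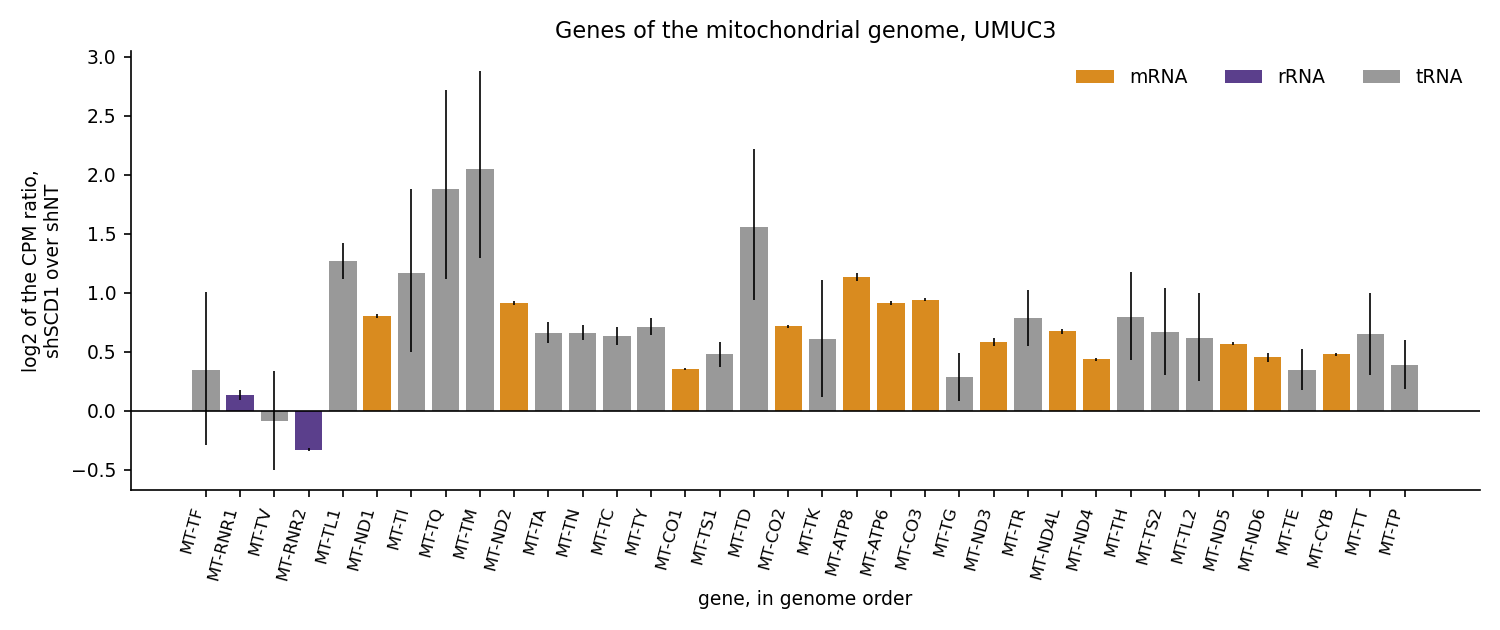
Log2 of the CPM ratio, shSCD1 over shNT, for the genes of the mitochondrial genome with at least 1 CPM in UMUC3, in genome order, with bars coloured by kind of RNA and lines giving exact Clopper-Pearson 95% intervals of counting error. MT-RNR2 and MT-TV lie below 0, MT-RNR1 is near 0.13 and the mRNAs lie between 0.35 and 1.13.

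Nuclear copies of the mitochondrial genome on chromosome 1 can take reads that belong to it. In UMUC3 MTND2P28 had 321 CPM in shSCD1, against 186 CPM in shNT, and MTATP6P1 had 397 CPM in shSCD1, against 233 CPM in shNT. MTCO1P12 had 181 CPM in shSCD1, against 161 CPM in shNT. Their log2 ratios of 0.79, 0.76 and 0.16 ran beside 0.91 for MT-ND2, 0.91 for MT-ATP6 and 0.35 for MT-CO1. Not every copy did so. All 9 rows named as such copies with at least 1 CPM in UMUC3 had a median log2 ratio of 0.25, with 7 above 0 and 2 below. The lowest was MTND5P11 at −0.77, while MT-ND5 stood at 0.57. How reads were split between a gene and its copy is not stated, so these rows are uncertain.

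The nuclear members of UMUC3 were mostly lower in shSCD1, by small amounts. Of 90 nuclear members with at least 1 CPM there, 69 were below 0 and 21 above, with a median log2 ratio of −0.14. Below 0 stood 45.7% of all genes of the line. By at least 1.5-fold 2 were lower, against 6.86% of all genes, and none was higher. In SW780 64 of 91 were below 0, against 51.5% of all genes, and 27 above, with a median log2 ratio of −0.06. By at least 1.5-fold 1 was higher, against 5.05% of all genes, and none was lower, against 3.7%. Within a log2 ratio of 0.32 of equal stood 70 of 90 in UMUC3, against 60.1% of all genes, and 86 of 91 in SW780, against 76.6%. In UMUC3 the counting interval lay wholly below 1 for 55 of 90, against 29.6% of all genes, and wholly above for 10, against 35.9%. In SW780 it lay below 1 for 37 of 91, against 29.8% of all genes, and above for 14, against 28.0%. Such a count also depends on how many reads a gene has.

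**Figure D3:**
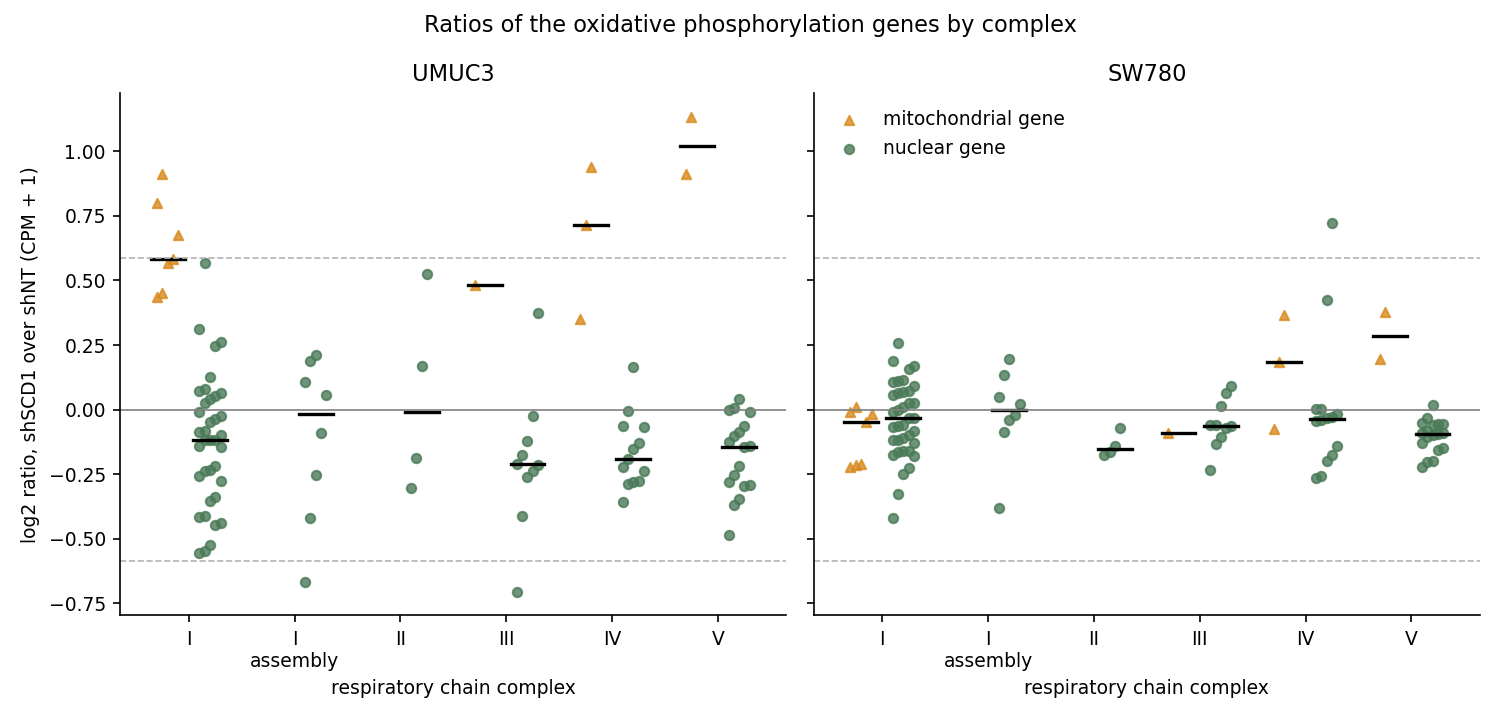
Log2 ratios, shSCD1 over shNT, of the mitochondrial genes (triangles) and nuclear genes (circles) of each complex in the 2 lines, with a black bar at each median and dashed lines at 1.5-fold in either direction. In UMUC3 every triangle stands above 0 while the nuclear medians lie between −0.21 and −0.01, and in SW780 both kinds stay mostly within 0.25 of 0.

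Complex I, the NADH dehydrogenase, had 37 nuclear members in UMUC3, with a median log2 ratio of −0.12. Of these 26 were below 0, against 45.7% of all genes. The NDUFB genes, whose products line the membrane arm, were below 0 for 10 of 11, against the same 45.7%, with a median of −0.23. NDUFA7, an accessory subunit, had the highest ratio of the complex, with 20.6 CPM in shSCD1 and 13.6 CPM in shNT. Its log2 ratio of 0.57 was under the size rule, although its plain fold was 1.52 (1.32 to 1.74). NDUFA1, an accessory subunit of the membrane arm, had the lowest, with 29.1 CPM in shSCD1 and 43.3 CPM in shNT, a log2 ratio of −0.56. NDUFC1 had 18.2 CPM in shSCD1 and 27.1 CPM in shNT, a log2 ratio of −0.55. NDUFV1, which holds the NADH site, had 190 CPM in shSCD1 and 183 CPM in shNT, and NDUFS1, the largest iron-sulphur subunit, had 157 CPM in shSCD1 and 170 CPM in shNT. NDUFA7 and NDUFA1 are the extremes of the 37, so any other subunit lies nearer to equal. Core and accessory subunits were not compared as sets.

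In SW780 22 of the 37 were below 0, against 51.5% of all genes, and the median was −0.03. NDUFB5, a membrane arm subunit, had the lowest ratio, with 43.2 CPM in shSCD1 and 58.1 CPM in shNT, a log2 ratio of −0.42. NDUFS8, an iron-sulphur subunit, had the highest, with 57.7 CPM in shSCD1 and 48.1 CPM in shNT, a log2 ratio of 0.26. NDUFS1 had 117 CPM in shSCD1 and 147 CPM in shNT. NDUFA1 had 56.0 CPM in shSCD1 and 60.8 CPM in shNT, and NDUFA7 had 10.6 CPM in shSCD1 and 11.1 CPM in shNT. The extremes of UMUC3 were thus not those of SW780.

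The 8 NDUFAF genes, which help build complex I and are no subunits of it, had medians of −0.02 in UMUC3 and 0.00 in SW780. NDUFAF8 had 6.02 CPM in the shSCD1 library of UMUC3, against 10.2 CPM in shNT, 1.69-fold lower (1.39 to 2.05). In SW780 NDUFAF8 was higher, with 20.5 CPM in shSCD1 and 17.8 CPM in shNT. NDUFAF1 was lower in both lines, with 10.5 CPM in shSCD1 and 14.4 CPM in shNT in UMUC3. The SW780 level was 20.7 CPM in shSCD1 and 27.3 CPM in shNT, the lowest ratio of the 8 there, at −0.38. NDUFAF5 had the highest ratio of the 8 in UMUC3, with 35.0 CPM in shSCD1 and 30.1 CPM in shNT.

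Complex II, succinate dehydrogenase, was split in UMUC3. SDHC, which with SDHD anchors the enzyme in the membrane, had 145 CPM in shSCD1 and 100.3 CPM in shNT, a fold of 1.44 (1.37 to 1.52). SDHB, the iron-sulphur subunit, had 152 CPM in shSCD1 and 135 CPM in shNT. SDHA, the flavoprotein that holds the succinate site, had 95.2 CPM in shSCD1 and 118 CPM in shNT, and SDHD had 191 CPM in shSCD1 and 217 CPM in shNT. So 2 of the 4 were higher and 2 lower, and none passed 1.5-fold. In SW780 all 4 were lower in shSCD1 by log2 ratios of −0.17 to −0.07. SDHA had 204 CPM in shSCD1 and 231 CPM in shNT there, SDHB 60.5 CPM in shSCD1 and 66.7 CPM in shNT, SDHC 117 CPM in shSCD1 and 122 CPM in shNT, and SDHD 99.6 CPM in shSCD1 and 112 CPM in shNT.

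Complex III had 9 of 10 nuclear members below 0 in UMUC3, against 45.7% of all genes, with a median log2 ratio of −0.21. UQCRFS1, the Rieske iron-sulphur protein, had the lowest ratio of all members in that line, with 72.6 CPM in shSCD1 and 119 CPM in shNT. It was 1.64-fold lower (1.55 to 1.73). For SW780 the values were 168 CPM in shSCD1, against 161 CPM in shNT, a log2 ratio of 0.06. UQCRHL, a close relative of UQCRH, was the one above 0 in UMUC3, with 9.10 CPM in shSCD1 and 6.79 CPM in shNT. Reads of UQCRHL and UQCRH can be split between them, so both are uncertain. UQCRH itself had 205 CPM in shSCD1 and 237 CPM in shNT in UMUC3, and 135 CPM in shSCD1 and 159 CPM in shNT in SW780, the lowest ratio of complex III in that line. CYC1, the cytochrome c1 of the complex, had 174 CPM in shSCD1 and 197 CPM in shNT in UMUC3, and 85.0 CPM in shSCD1 and 91.5 CPM in shNT in SW780. UQCR11, a small subunit, had the highest ratio of the complex in SW780, with 55.8 CPM in shSCD1 and 52.3 CPM in shNT.

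Complex IV had 12 of 13 nuclear members below 0 in UMUC3, against 45.7% of all genes, with a median log2 ratio of −0.19. COX6B1, a small subunit on the intermembrane side, had the lowest, with 64.2 CPM in shSCD1 and 82.7 CPM in shNT. COX4I1, an early-assembling regulatory subunit, was the one above 0, with 269 CPM in shSCD1 and 240 CPM in shNT. In SW780 10 of 14 were below 0, against 51.5% of all genes, with a median of −0.04. COX6B1 had 168.5 CPM in shSCD1 and 168.3 CPM in shNT there, and COX4I1 had 211 CPM in shSCD1 and 233 CPM in shNT. NDUFA4, named for complex I but a subunit of complex IV, had the lowest ratio of the complex in SW780, with 139 CPM in shSCD1 and 168 CPM in shNT. It was also lower in UMUC3, with 89.2 CPM in shSCD1 and 104 CPM in shNT.

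The tissue or condition specific relatives of complex IV subunits had few reads. COX7B2, the relative of COX7B, had 82 reads in the shSCD1 library of SW780, against 53 reads in shNT, which is 3.21 CPM in shSCD1 and 1.55 CPM in shNT. Its plain fold was 2.06 (1.44 to 2.97), and it was the one nuclear member of that line past the size rule on the log2 scale. In UMUC3 COX7B2 had 133 reads in shSCD1 and 118 reads in shNT, which is 4.09 CPM in shSCD1 and 5.17 CPM in shNT, and the interval of its fold, 0.612 to 1.02, held 1. COX7B had 85.0 CPM in shSCD1 and 85.3 CPM in shNT in UMUC3, and 84.5 CPM in shSCD1 and 101.2 CPM in shNT in SW780. COX6B2 was not kept in UMUC3, with 3 reads in shSCD1 and 2 reads in shNT. In SW780 it was the kept member nearest to the 1 CPM limit, with 46 reads in shSCD1 and 37 reads in shNT. Its plain fold was 1.66 (1.05 to 2.63), while its log2 ratio of 0.43 was under the size rule. NDUFA4L2 and COX7A1 stayed under 1 CPM in all 4 libraries, at most 17 reads in any.

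Complex V had 16 of 18 nuclear members below 0 in UMUC3, against 45.7% of all genes (median log2 ratio −0.14). In SW780 17 of 18 were below 0, against 51.5% of all genes (median −0.09). The 5 genes of the F1 head, which makes ATP, had medians of −0.35 in UMUC3 and −0.11 in SW780. All 5 genes of the head were below 0 in both lines, against 25.6% of all genes kept in both. ATP5F1B, its catalytic beta subunit, had 1263 CPM in the shSCD1 library of UMUC3, against 1606 CPM in shNT. For SW780 the values were 596 CPM in shSCD1, against 665 CPM in shNT. ATP5F1A, the alpha subunit, had 640 CPM in shSCD1 and 708 CPM in shNT in UMUC3, and 406 CPM in shSCD1 and 435 CPM in shNT in SW780. ATP5F1E, the epsilon subunit, had the lowest ratio of the complex in UMUC3, with 73.0 CPM in shSCD1 and 103 CPM in shNT. ATP5PD, a stalk subunit, had the highest there, with 97.1 CPM in shSCD1 and 94.4 CPM in shNT. In SW780 ATP5PO, another stalk subunit, was the one above 0, at a log2 ratio of 0.02.

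ATP5MC1, ATP5MC2 and ATP5MC3 encode the same mature c-ring subunit with different targeting sequences. In UMUC3 ATP5MC1 had 81.9 CPM in shSCD1 and 82.0 CPM in shNT, ATP5MC2 154 CPM in shSCD1 and 163 CPM in shNT, and ATP5MC3 120 CPM in shSCD1 and 147 CPM in shNT. In SW780 ATP5MC1 had 45.6 CPM in shSCD1 and 53.4 CPM in shNT, the lowest ratio of the complex there, at −0.22. ATP5MC2 had 71.0 CPM in shSCD1 and 73.5 CPM in shNT, and ATP5MC3 147 CPM in shSCD1 and 153 CPM in shNT. Per length their order depended on the transcript used: ATP5MC3 gave 9.36% of the trio in the shSCD1 library of UMUC3 and 11.0% in shNT with the longest principal transcripts, but 30.6% in shSCD1 and 34.2% in shNT with the shortest. ATP5IF1, the inhibitor that stops ATP synthase from running backwards, had 19.6 CPM in shSCD1 and 24.0 CPM in shNT in UMUC3, and 47.8 CPM in shSCD1 and 51.0 CPM in shNT in SW780. Per length the highest nuclear member of the complex was ATP5F1B in all 4 libraries, with either transcript, at 1662 in shSCD1 and 2144 in shNT of UMUC3 and 804 in shSCD1 and 897 in shNT of SW780 with the longest.

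The rows that are not plain genes were few. NDUFC2-KCTD14, a read-through of NDUFC2 into its neighbour whose exons all belong to other genes as well, had 286 reads in the shSCD1 library of UMUC3, against 34 reads in shNT. For SW780 the values were 148 reads in shSCD1, against 112 reads in shNT. Its log2 ratios of 1.98 and 0.66 in UMUC3 and SW780 passed the size rule and are uncertain because of the shared exons. NDUFC2 itself had log2 ratios of 0.08 and −0.08. The non-coding rows NDUFA6-DT and NDUFB2-AS1 had 3.35 and 0.860 CPM in the shSCD1 library of UMUC3, against 3.24 and 1.23 CPM in shNT. The 8 rows of UMUC3 and 4 of SW780 under 1 CPM got no ratio here.

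Of the 90 nuclear genes with at least 1 CPM in both lines, 48 were below 0 in both, against 25.6% of all 11152 genes kept in both lines, and 5 above in both, against 26.0%. A further 21 were below in UMUC3 and above in SW780, and 16 the other way. Most nuclear members were below 0 in each line alone, 69 of 90 in UMUC3 and 64 of 91 in SW780. The count of 48 therefore does not by itself show agreement gene by gene. Across these genes the 2 lines' ratios had Pearson's r of −0.11 and Spearman's rho of −0.12, a description over genes that share libraries. Among the genes lower in both lines by the largest smaller size were NDUFAF1, with log2 ratios of −0.42 in UMUC3 and −0.38 in SW780, and NDUFA4, with −0.22 in UMUC3 and −0.27 in SW780. Of the 5 higher in both, NDUFA3, NDUFAF5 and NDUFV1 had the largest smaller size, before NDUFB1 and NDUFAF6. NDUFA3, an accessory subunit, had 17.1 CPM in shSCD1 and 14.2 CPM in shNT in UMUC3, and 36.5 CPM in shSCD1 and 31.9 CPM in shNT in SW780. Of the 13 mitochondrial mRNAs, 5 were above 0 in both lines and 8 were above in UMUC3 and below in SW780, and the difference between the lines was not tested because no degrees of freedom were left for it.

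**Figure D4:**
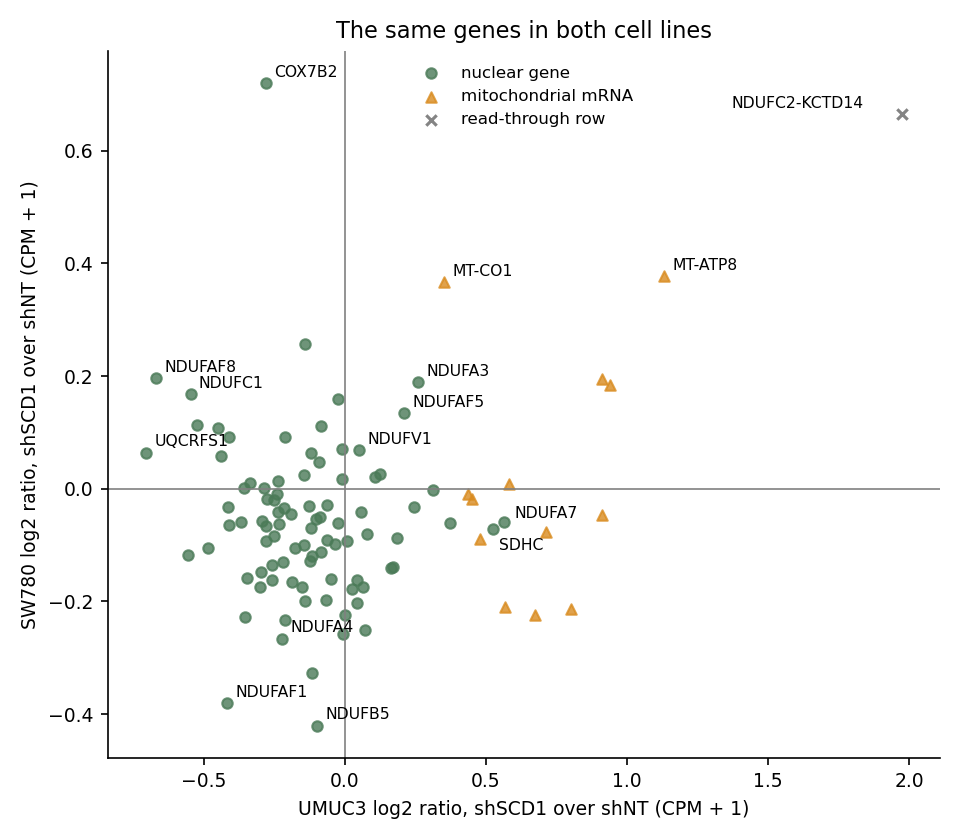
Log2 ratios, shSCD1 over shNT, of each gene in UMUC3 (horizontal axis) and SW780 (vertical axis), with triangles for mitochondrial mRNAs, circles for nuclear genes and a cross for the read-through row. The triangles all lie right of 0, and 5 of the 13 lie above 0.

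An effect common to both lines was tested with edgeR's quasi-likelihood test, with the cell line as a block and Benjamini-Hochberg adjustment over all 11152 genes tested. It called 1 gene, BEST1 (adjusted p = 0.0326), or 0.00897% of those tested, while 382 genes had an unadjusted p under 0.05. Of 104 members tested, 0 were called and 3 had an unadjusted p under 0.05, namely MT-ATP8, NDUFC2-KCTD14 and MT-CO1. The log2 fold across both lines was 0.75 for MT-ATP8 and 0.35 for MT-CO1, higher in 2 of 2 lines, each with an adjusted p of 0.961 by edgeR. DESeq2 called 29 genes and 0 members. It gave an unadjusted p under 0.05 to 365 of the 11152 genes and 4 of the 104 members. In both fits the share of members under 0.05 was near that of all genes. The fit has 1 residual degree of freedom, so it compares 2 lines and not replicate cultures.

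The authors' deposited table holds a GFOLD value, a log2 fold shrunk towards 0 by counting error. In the authors' deposited table of UMUC3 it was above 0 for all 13 mitochondrial mRNAs and for 7 of the 90 nuclear members, against 25.8% of all genes. In the authors' deposited table of UMUC3 it was below 0 for 62 of the 90, against 34.9% of all genes. In the authors' deposited table of SW780 it was above 0 for 4 of 13 mitochondrial mRNAs and 10 of 91 nuclear members, against 25.7% of all genes. It was below 0 there for 6 of 13 and 32 of 91, against 26.0%, again in the authors' deposited table. The authors' deposited table gave MT-ATP8 a GFOLD value of 1.02 in UMUC3 and 0.34 in SW780.

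Genes of the pathway outside the complexes were grouped in 7 lists, whose counts stand beside the shares of all genes: 10.1% higher and 6.86% lower by 1.5-fold in UMUC3, and 5.05% higher and 3.7% lower in SW780. With so few genes in a list, 1 to 4 such genes are read as values and not as a result about the list. The list of factors that copy the mitochondrial genome and process its RNA had 4 of 26 genes higher by 1.5-fold in UMUC3, against 10.1% of all genes, and none lower, with a median log2 ratio of 0.12, and 1 higher and 1 lower of 26 in SW780, against 5.05% and 3.7% of all genes, with a median of −0.10. TFAM, which packages mitochondrial DNA and starts its transcription, had 173 CPM in the shSCD1 library of UMUC3, against 114 CPM in shNT. For SW780 the values were 44.9 CPM in shSCD1, against 77.2 CPM in shNT. It was thus higher in UMUC3, at a log2 ratio of 0.60, and lower in SW780, at −0.77, and the difference was not tested. POLRMT, the mitochondrial RNA polymerase, had 42.4 CPM in shSCD1 and 41.8 CPM in shNT in UMUC3, and 30.2 CPM in shSCD1 and 31.9 CPM in shNT in SW780. MTERF1 and MTERF2, of the family of mitochondrial termination factors, had log2 ratios of 0.66 and 0.62 in UMUC3, and FASTKD5, which acts on mitochondrial RNA without tRNA ends, 0.73, the highest of the list. MTPAP, the poly(A) polymerase of mitochondrial RNA, had the lowest in UMUC3, at −0.31. HSD17B10, a part of the enzyme that cuts tRNAs out of the precursors, had 54.2 CPM in the shSCD1 library of SW780, against 21.0 CPM in shNT. In UMUC3 it had 28.2 CPM in shSCD1, against 29.3 CPM in shNT.

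The list of assembly factors for the complexes had 3 of 40 genes lower and none higher by 1.5-fold in UMUC3 (median 0.04), and 1 of 41 lower and none higher in SW780 (median −0.10). The lower share in UMUC3 was near the 6.86% of all genes. The 3 were COX10, which makes heme for complex IV, and COX14 and COX20, which help assemble it, with log2 ratios of −0.66, −0.66 and −0.62. COX10 had 17.7 CPM in shSCD1 and 28.6 CPM in shNT. UQCC1, an assembly factor of complex III, had the highest ratio in UMUC3, at 0.51. In SW780 the lowest was PET117, with 2.04 CPM in shSCD1 and 4.02 CPM in shNT, and the highest UQCC3, at 0.50.

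Of the regulators of mitochondrial biogenesis, 2 of 11 were lower by 1.5-fold in UMUC3 (median 0.06), against 6.86% of all genes, and 1 of 12 in SW780 (median −0.05), against 3.7%. None was higher in either. ESRRA, a nuclear receptor of energy metabolism, had 13.5 CPM in shSCD1 and 24.3 CPM in shNT in UMUC3. MYC had 291 CPM in shSCD1 and 444 CPM in shNT. PPARGC1B, a coactivator, had 10.0 CPM in the shSCD1 library of SW780, against 22.5 CPM in shNT. In UMUC3 it had 29.4 CPM in shSCD1, against 22.4 CPM in shNT, the highest ratio of the list there. NRF1 had log2 ratios of 0.18 in UMUC3 and 0.13 in SW780, where GABPB1, a partner of GABPA, had the highest of the list, also at 0.13.

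Of the electron carriers and ATP exporters, 3 of 22 were lower by 1.5-fold in UMUC3 (median −0.05), against 6.86% of all genes, and none of 23 in either direction in SW780 (median −0.07). SQOR, which passes electrons from sulphide to ubiquinone, had 25.6 CPM in the shSCD1 library of UMUC3, against 67.6 CPM in shNT. VDAC1, a channel of the outer membrane, had 320 CPM in shSCD1 and 592 CPM in shNT, and SLC25A5, an ADP/ATP carrier, had 281 CPM in shSCD1 and 478 CPM in shNT. The highest ratio was that of COQ4, of ubiquinone synthesis, at 0.54. CYCS, cytochrome c, had 308 CPM in shSCD1 and 240.0 CPM in shNT in UMUC3, and 245 CPM in shSCD1 and 277 CPM in shNT in SW780. In SW780 the range ran from −0.39 for COQ5 to 0.14 for PDSS2, both of ubiquinone synthesis.

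Of the citric acid cycle and pyruvate enzymes, 1 of 18 was higher by 1.5-fold in UMUC3 (median 0.01), against 10.1% of all genes, and 2 were lower, against 6.86%. In SW780 1 of 18 was lower (median −0.14), against 3.7%, and 17 of the 18 were below 0, against 51.5%. PC, pyruvate carboxylase, had 12.6 CPM in the shSCD1 library of UMUC3, against 32.3 CPM in shNT, and PDHB, of pyruvate dehydrogenase, had 57.7 CPM in shSCD1, against 100.3 CPM in shNT. DLST, of oxoglutarate dehydrogenase, had 180 CPM in shSCD1, against 104 CPM in shNT. In SW780 PDHX, a structural part of pyruvate dehydrogenase, had 14.4 CPM in shSCD1, against 25.3 CPM in shNT, and MDH2, malate dehydrogenase, had the highest ratio, at 0.02.

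Of the genes of cristae and membrane dynamics none of 20 passed 1.5-fold in either line, with medians of −0.02 in UMUC3 and −0.06 in SW780. The range in UMUC3 ran from −0.55 for MICOS10, of the cristae junction, to 0.35 for PHB2, a prohibitin. In SW780 it ran from −0.41 for MFN1 to 0.11 for MFN2, both mitofusins. Of the stress and antioxidant genes 1 of 15 was lower by 1.5-fold in UMUC3 (median −0.01), against 6.86% of all genes, and 2 of 15 in SW780 (median 0.04), against 3.7%. PRDX3, a mitochondrial peroxidase, had 222 CPM in shSCD1 and 344 CPM in shNT in UMUC3. In SW780 UCP2, an inner membrane carrier, had 77.7 CPM in shSCD1 and 127 CPM in shNT, and OMA1, a stress protease, had 7.12 CPM in shSCD1 and 12.2 CPM in shNT. The highest of this list were UCP3 in UMUC3, at 0.32, and AFG3L2, a protease subunit, in SW780, at 0.19.

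**Figure D5:**
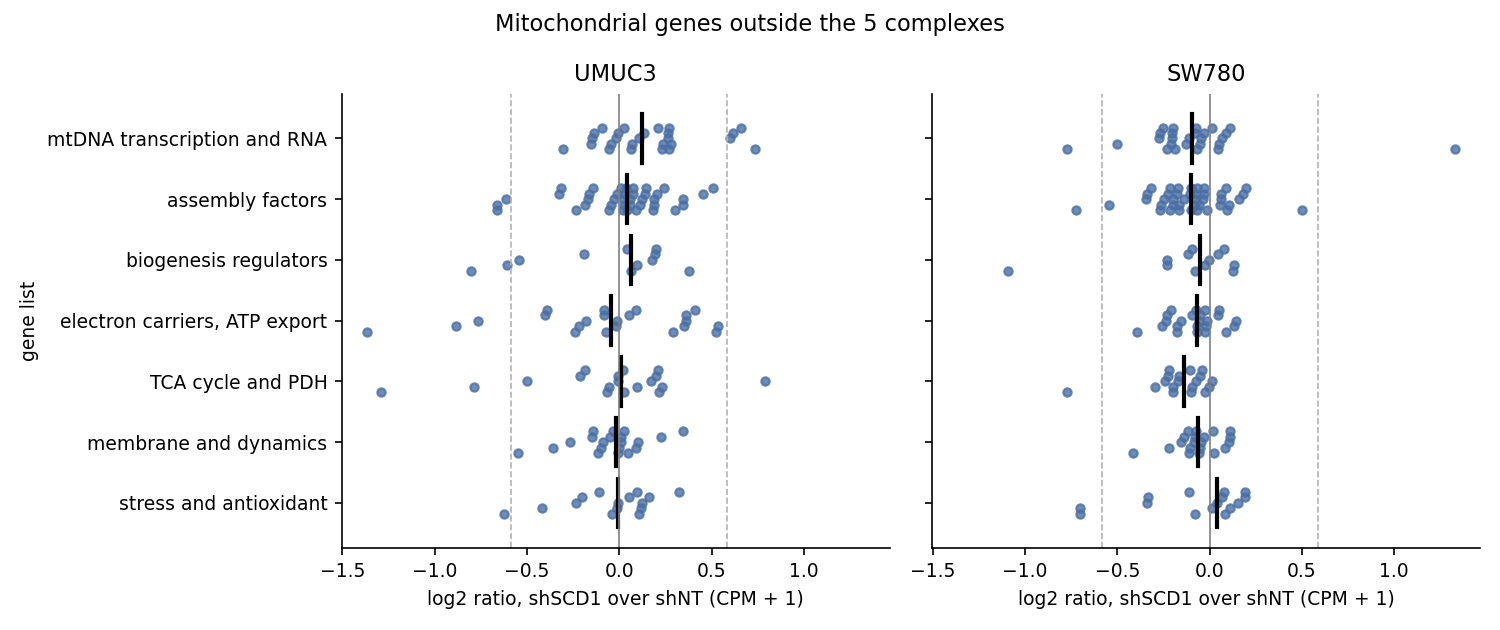
Log2 ratios, shSCD1 over shNT, of the genes in 7 lists of mitochondrial genes outside the complexes, 1 point per gene, with a black bar at each median and dashed lines at 1.5-fold in either direction. The medians lie between −0.05 and 0.12 in UMUC3 and between −0.14 and 0.04 in SW780.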

How the data were processed

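Each of the 4 groups gave 1 TruSeq library that was read on a NovaSeq sequencer, per the labels' protocols. Per the submitters' processing notes the genome build is hg38. No source used here names the aligner, counter or annotation, or says if strand was used. The authors deposited 1 table per line. The deposited signal, headed RPKM, holds read counts brought to a common column sum with no gene length, and whole reads were recovered by dividing by the worth of 1 read. A tolerance of 0.1 reads from a whole number held for 100% of the values of 20 reads or fewer and for at least 99.9% of all. A count of 0 allows up to 3 reads, or 0.0880 to 0.131 CPM. The log2 fold change and GFOLD value at a setting of 0.01 are the authors', per the file headers. The planned unit was RPKM or CPM, and CPM was used.

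Symbols matched 99.4% of the UMUC3 and 99.9% of the SW780 rows. Positions, lengths, GC content and shared exons came from GENCODE 29. The members, the lists and the rule for named genes were chosen with earlier results of these data known. Named were SCD, all mitochondrial mRNAs and rRNAs, complex II, the highest and lowest nuclear ratio of each complex and list, every member past 1.5-fold, the paralogues, and the 3 members with the largest smaller ratio per direction in both lines; others were chosen after their values were seen. COX4I2, COX6A2, COX8C and FASTKD4 were not analysed here, nor was ETFA in UMUC3, and 1 gene that the rule names is not reported here. The fits used edgeR 4.0.16 and DESeq2 1.42.0 on the recovered counts in R 4.3.3. Read recovery and the edgeR fit were tested on simulated data. Alternatives were other totals, scalings, pseudocounts, filters, sizes and overlaps.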

Additional observations from a re-analysis of the deposited data

Results flagged for a closer look

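The following 3 nuclear members had ratios of opposite sign in the 2 lines by the largest smaller size, each from 1 library per group, and the difference was not tested. COX7B2, the relative of COX7B, had a log2 ratio of −0.28 in UMUC3 and 0.72 in SW780. Its fold interval in UMUC3, 0.612 to 1.02, held 1, so its sign there is uncertain. In SW780 it had 82 reads in shSCD1 and 53 reads in shNT. NDUFAF8, an assembly factor of complex I, had −0.67 in UMUC3 and 0.20 in SW780. NDUFC1, a complex I subunit, had −0.55 in UMUC3 and 0.17 in SW780, and another gene's exons cover 18.5% of its exonic bases.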

How the results depend on the processing

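The mitochondrial median of UMUC3 stayed above 0 with 13 of 13 mRNAs above 0 in every alternative run that kept them all, but moved from 0.67 to 0.70 with totals free of mitochondrial reads, 0.64 after centring on the median of all genes, 0.59 with the authors' deposited log2 fold change, 0.65 after removing the trend with GC content and length, and 0.63 without members sharing at least 10% of their exonic bases. The nuclear median of UMUC3 moved to −0.22 with the authors' deposited log2 fold change, where 78 of 90 were below 0. With totals free of mitochondrial reads, or after removing the trend, 63 of 90 were below 0 in place of 69. The mitochondrial median of SW780 moved to −0.0444 after removing the trend. Members higher by 1.5-fold, the read-through row included, were 8 of 106 in UMUC3 and 2 of 105 in SW780, against 10.1% and 5.05% of all genes. Lower were 2 and 0, against 6.86% and 3.7%. With a size of 2-fold members were 2 higher and 0 lower in UMUC3, against 347 and 306 of all 14063 genes. In SW780 0 were higher, against 191 of all 12880. With a log2 size of 0.32 members were 17 higher and 17 lower in UMUC3 and 5 higher and 3 lower in SW780. Of these, nuclear members were 3 higher and 17 lower in UMUC3 and 2 higher and 3 lower in SW780. Within that size stood 60.1% of all genes of UMUC3 and 76.6% of SW780. Lower in UMUC3 were 6 with the authors' deposited log2 fold change and 1 after removing the trend. Higher by 1.5-fold in UMUC3 were 11 with totals free of mitochondrial reads and 6 without members sharing at least 10% of their exonic bases. Higher in SW780 was 1 with a 5 CPM filter, without shared exons, or without read-through rows, the last chosen after seeing the data. With genes in both tables alone as the total, the mitochondrial share was 5.69% in shSCD1 and 3.76% in shNT of UMUC3, and 4.59% in shSCD1 and 4.41% in shNT of SW780. Genes called over both lines were 29 with DESeq2, 0 with DESeq2 size factors in edgeR and 0 without the cell line term, and members called were 0 in each fit. No sign of a median reversed. The fit over both lines pairs shSCD1 with shNT by cell line. The labels give no replicate numbers to pair by, and no library could be left out of a group of 1. Among the tissue or condition specific relatives of complex IV subunits, depth limited COX6B2, NDUFA4L2 and COX7A1 most, with 46 reads or fewer in any library.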

Other observations

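ATP5ME, a membrane subunit of ATP synthase, differed more between the tables of the 2 lines than within either. It had 4.46 CPM in the shSCD1 library of UMUC3 and 5.70 CPM in shNT, and 52.8 CPM in the shSCD1 library of SW780 and 58.6 CPM in shNT. Another gene's exons cover 61.6% of its exonic bases, and the 2 tables list different numbers of genes, so the part of the counting in this value was not tested. It was chosen after its values were seen.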
